A study of Mus musculus with 2 samples.

Results

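The genes described here are Mir451a, Mir451b, Mir144, Mir486 and Mir3107, the microRNA genes of 2 loci known for their activity in red blood cells. They were chosen by their symbols in release M21 of the GENCODE annotation, and are 5 of the 2202 genes counted; the symbols were picked with earlier results of these data known. Short RNA was sequenced from the hearts of 2-month-old B6CASTF1/J females, the F1 hybrid of C57BL/6J and CAST/EiJ. The labels give 1 group of 2 biological replicates, with no treatment and no contrasting group. They give both the same donor label although they number them as biological replicates 1 and 2. The sources used here do not say whether the hearts were cleared of blood. The data give levels in the heart and the difference between libraries, and not the effect of any condition. Replicate 2 held 2770301 and replicate 1 held 2424441 reads on the own strand of a microRNA gene, and all levels are CPM, counts scaled to 1000000 of these totals. At least 10 counts in both libraries, the condition for calling a gene detected, corresponded to 3.61 CPM in replicate 2 and to 4.12 in replicate 1, and 306 genes met it, among them 4 of the 5 described here.

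Mir144 and Mir451a are transcribed together in red cell precursors under the erythroid factor GATA1, and mice without the cluster have impaired red cell maturation and fragile red cells under oxidative stress. miR-451a is known for a maturation route of its own, in which the stem is too short for Dicer and is cut by Argonaute 2. Mir486 lies in the gene of ankyrin 1, a membrane skeleton protein of red cells and muscle, and is known both as a red cell microRNA and as a muscle microRNA. Mir451b and Mir3107 are annotated on the strands opposite Mir451a and Mir486.

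The mature products are shown because they decide which transcripts each gene can repress and which reads can be placed on it. RefSeq sequences (GRCm38.p6) matched 3 of the 5 genes, Mir451a, Mir451b and Mir144, and the seed, bases 2 to 8, is in capitals.
mmu-miR-451a: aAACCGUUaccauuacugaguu
mmu-miR-451b: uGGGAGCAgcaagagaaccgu
mmu-miR-144-5p: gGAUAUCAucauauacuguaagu
mmu-miR-144-3p: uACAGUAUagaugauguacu
mmu-miR-101a-3p: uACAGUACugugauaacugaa
None of the 4 seeds of the erythroid products occurred in the product of another gene among the 1738 mature entries. miR-144-3p shared bases 2 to 7 with a single product, miR-101a-3p of Mir101a, which is printed last and had 130 counts in replicate 2 and 381 in replicate 1. The hairpins of Mir451a and Mir144 show where the products lie, here in capitals.
Mir451a hairpin: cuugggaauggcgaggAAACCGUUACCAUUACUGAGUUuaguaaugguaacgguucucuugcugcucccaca
Mir144 hairpin: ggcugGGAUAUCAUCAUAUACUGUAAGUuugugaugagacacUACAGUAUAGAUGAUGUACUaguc
miR-451a covered bases 17 to 38 of its 72-base hairpin as a single product running into the loop, whereas Mir144 carried a product on each arm, at bases 6 to 28 and 43 to 62 of 66. The deposited counts are per gene, so the reads of the 2 arms of Mir144 cannot be told apart.

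In mm10 the cluster lies on chromosome 11 between genes. Mir144 occupies 78073005 to 78073070 and Mir451a 78073170 to 78073241, both on the plus strand with 99 bases between them. Mir451b occupies the same interval as Mir451a on the minus strand. The nearest other gene is Eral1, 134 bases beyond Mir451a on the minus strand. Mir486 lies on the plus strand of chromosome 8 at 23142555 to 23142682, in an intron of Ank1, which is transcribed from the same strand. Mir3107 lies within that interval on the minus strand, at 23142573 to 23142662, in an intron of the antisense transcript Gm15816.

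Mir451a was the most abundant of the 5 genes in both libraries, and its level differed most between them. It had 240538 counts, or 86827 CPM, in replicate 2 and 18950 counts, or 7816 CPM, in replicate 1. By counted reads that made it the 3rd most abundant microRNA gene of replicate 2 and the 24th of replicate 1. The mean of 47322 ± 55869 CPM (SD, n = 2) has an SD above the mean. Reads mapped to several places, 42.7% of all reads in replicate 2 and 49.5% in replicate 1, are listed apart from the genes. All ranks given here leave them out, so a gene whose reads map to several places may rank too low. Mir144, the first gene of the cluster, had 18999 counts in replicate 2 and 4758 in replicate 1, that is 6858 and 1963 CPM. It ranked 24th in replicate 2 and 49th in replicate 1, with a mean of 4410 ± 3462 CPM (n = 2). Both genes of the cluster were thus high in replicate 2 and lower in replicate 1.

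Mir486 had nearly the same level in both libraries. It had 5316 counts, or 1919 CPM, in replicate 2, where it ranked 48th, and 4145 counts, or 1710 CPM, in replicate 1, where it ranked 55th. Its mean of 1814 ± 148 CPM (n = 2) lay far above the median of 80.1 CPM over detected genes. Mir486 and Mir3107 share bases that may leave reads uncounted, so both levels are uncertain. Mir3107 had 180 counts in replicate 2 and 172 in replicate 1, or 65.0 and 70.9 CPM, with a mean of 68.0 ± 4.22 CPM (n = 2). Mir451b had 0 counts in both, which allows a level of up to 1.08 CPM in replicate 2 and up to 1.24 in replicate 1. The order of the 5 genes was the same in each library. Mir144 and Mir486 lay closest in replicate 1, where Mir144 had 1.15 times the counts of Mir486 (95% exact interval 1.10 to 1.20), against 3.57 times in replicate 2 (3.47 to 3.68). All intervals and limits reflect counting error alone.

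**Figure D1:**
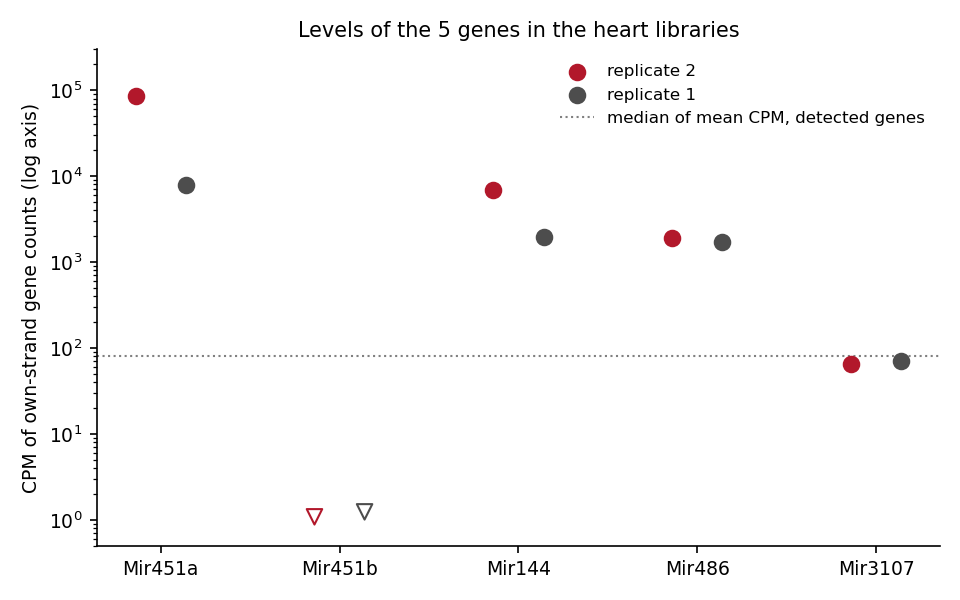
Level of each gene (CPM of own-strand gene counts, log axis) in replicate 2 (red) and replicate 1 (grey), with 1 point per library. Open triangles mark the limit of 1.08 and 1.24 CPM that a count of 0 allows for Mir451b, and the dotted line is the median over detected genes, 80.1 CPM; Mir451a and Mir144 lie apart between the libraries while Mir486 and Mir3107 lie together.

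Together the 5 genes held 9.57% of gene counts in replicate 2 (95% exact Clopper-Pearson interval 9.53 to 9.60) and 1.16% in replicate 1 (1.14 to 1.17), a mean of 5.36% ± 5.95 (n = 2). Mir451a made up 90.8% of this sum in replicate 2 and 67.6% in replicate 1. Without Mir451a the other genes held 0.884% of counts in replicate 2 (0.873 to 0.895) and 0.374% in replicate 1 (0.367 to 0.382). Mir486 and Mir3107 alone held 0.198% (0.193 to 0.204) and 0.178% (0.173 to 0.183). The difference in the summed share therefore came from the chromosome 11 cluster, which held 9.37% in replicate 2 and 0.978% in replicate 1. In bulk tissue, fewer cells of a type and less RNA per cell cannot be told apart.

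Each detected gene was compared between the libraries with a two-sided exact binomial test on its counts, with Benjamini-Hochberg adjustment over the 306 detected genes. A gene was called at adjusted p under 0.05 and a fold of at least 1.5. The test compares 2 libraries beyond counting error and says nothing of the spread between animals. Mir451a was 11.1-fold higher in replicate 2 (exact interval 10.9 to 11.3) and Mir144 3.49-fold higher (3.39 to 3.61). Of the 4 genes tested, these 2 were called higher in replicate 2 and none lower, where 11.1% of all detected genes were called higher, 25.5% lower and 36.6% either way. By adjusted p alone, without the fold, 3 of the 4 genes and 61.1% of all detected genes differed. Mir451a had the largest log2 ratio of the 306 genes, 3.47, and Mir144 the 6th largest, 1.81. By this measure 81.4% of detected genes lay within 2-fold.

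Mir486 was 1.12-fold higher in replicate 2 (1.08 to 1.17). Its adjusted p was 6.7e-08 by the same exact binomial test, but its fold was under 1.5, and its log2 ratio of 0.17 ranked 90th. Mir3107 did not pass the test, with 0.916 times the level in replicate 2 (0.739 to 1.14; adjusted p = 0.51, exact binomial test). The median detected gene had a log2 ratio of -0.19, and relative to it the log2 ratios were 3.66 for Mir451a, 2.00 for Mir144, 0.36 for Mir486 and 0.06 for Mir3107. The sign for Mir3107 thus depended on the scaling: its log2 ratio was -0.13 with library totals, 0.09 with edgeR's TMM factors and 0.06 with DESeq2's factors. Over all detected genes, library totals gave 34 genes higher and 78 lower in replicate 2, TMM factors 52 and 46, DESeq2 factors 48 and 49, and totals without Mir451a 40 and 60. Mir451a and Mir144 were called higher in replicate 2 under each of these scalings.

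**Figure D2:**
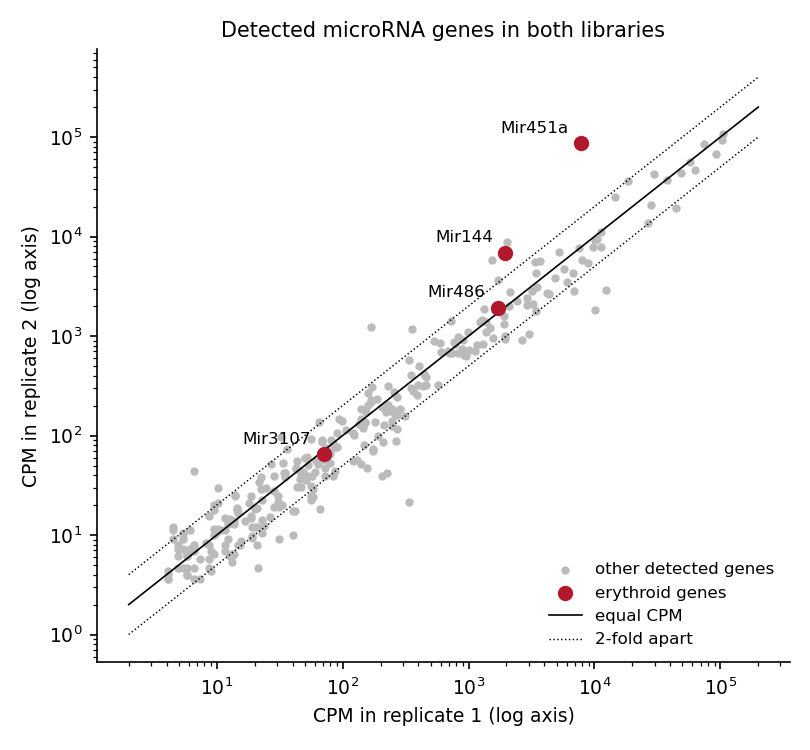
CPM of the 306 detected genes in replicate 2 (vertical, log axis) against replicate 1 (horizontal, log axis), with 1 point per gene, the line of equal CPM and dotted lines 2-fold apart. Mir451a and Mir144 (red) lie above the upper dotted line, at 11.1-fold and 3.49-fold, while Mir486 and Mir3107 lie near the line of equal CPM.

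The genes nearest to each of these in log2 ratio were sought among the 225 detected genes with at least 100 counts over both libraries. With 2 libraries, likeness rests on a single ratio. For Mir451a they were Mir185 (2.87), Mir3074-1 (2.75) and Mir99b (2.13), so that no other gene came within 0.60 of it on the log2 scale. The ratio of Mir3074-1 rests on few counts, 123 in replicate 2 and 16 in replicate 1. For Mir144 they were Mir351 (1.74), Mir208a (1.93) and Mir505 (1.55). For Mir486 they were Mir10a, Mir187 and Mir296, at log2 ratios of 0.17, 0.17 and 0.15, and for Mir3107 Mir30d, Mirlet7a-1 and Mir467e, at -0.12, -0.13 and -0.13. What the genes named for Mir486 and Mir3107 share with other hairpins is not given here, so their ratios stand for counted reads only. Mir208a, which is encoded within the cardiac alpha myosin heavy chain gene, had 5865 CPM in replicate 2 and 1542 CPM in replicate 1, close to the values of Mir144 in each.

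By mean level of counted reads Mir451a ranked 7th, between Mirlet7b (54867 ± 11942 CPM, n = 2) and Mir143 (46119 ± 3672 CPM). Its order against them differed by library. In replicate 2 Mir451a lay above both, at 86827 CPM against 46422 for Mirlet7b and 43522 for Mir143. In replicate 1 it lay below both, at 7816 CPM against 63311 and 48716. Mir144 ranked 34th, between Mir100 (4422 ± 1515 CPM) and Mir322 (4331 ± 712 CPM). Mir486 ranked 51st, between Mir674 (2020 ± 1380 CPM) and Mir744 (1798 ± 7.70 CPM), and Mir3107 ranked 160th, between Mir1983 (72.1 ± 10.6 CPM) and Mir669c (66.7 ± 18.8 CPM). All these neighbours were picked by mean level, so small gaps between the means were given in advance and test nothing.

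Although they stem from the same precursor transcript, Mir451a and Mir144 did not differ between the libraries by the same factor. Per count of Mir144 there were 12.7 of Mir451a in replicate 2, with an exact interval of 12.5 to 12.8, against 3.98 in replicate 1, with an interval of 3.86 to 4.11. These ratios need no scaling between libraries, and they differed 3.18-fold. The log2 ratios of the 2 genes differed by 1.67. For comparison, which was added after these values had been seen, 28 pairs of neighbouring genes lay on the same strand within 1000 bases and had at least 100 counts of each gene in each library. Their log2 ratios differed by 0.09 to 2.76, with a median of 0.66, and Mir144 and Mir451a gave the 4th largest difference. The largest was that of Mir99b and Mirlet7e.

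A second ratio within each library was taken to Mir23a, since the ratio of miR-451a to miR-23a is used in plasma as a measure of haemolysis, miR-23a being little affected by red cell lysis. Mir451a had 2.03 counts per count of Mir23a in replicate 2 (2.01 to 2.04) and 0.264 in replicate 1 (0.260 to 0.268), a 7.67-fold difference. Plasma limits for this ratio do not apply to tissue. Mir23a itself had 118725 counts in replicate 2 and 71745 in replicate 1, a log2 ratio of 0.53 in CPM, so the denominator also differed. Mir23a shares a stretch of 20 bases with Mir23b. Whether reads of that stretch are among the multimapping reads was not tested, so the ratio itself is uncertain.

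Among other microRNAs known from red cells, Mir185 came nearest to the difference seen for Mir451a. Of the 12 genes of this list 11 were detected, of which 4 were called higher in replicate 2 and 1 lower, with a median log2 ratio of 0.48. Over all detected genes 11.1% were called higher and 25.5% lower, and the median was -0.19. The list's summed share was 1.88% in both replicate 2 and replicate 1. Mir185 had 3397 counts in replicate 2 and 407 in replicate 1, 7.30-fold higher. Mir183, of the Mir183, Mir96 and Mir182 cluster, was called higher at 31 counts in replicate 2 and 11 in replicate 1. Mir92-1 and Mir92-2, which give the same miR-92a product, were 1.54-fold and 1.70-fold higher. Mir16-2 was 1.55-fold lower in replicate 2, whereas Mir16-1, which gives the same product, had a fold of 1.40. With TMM factors, DESeq2 factors or totals without Mir451a, Mir16-1 was called higher and Mir16-2 was not called, giving 5 higher and 0 lower of 11, where these scalings called 40 to 52 of all 306 genes higher and 46 to 60 lower. Mir16-1 shares 23 bases with Mir16-2, and Mir92-1 shares 22 with Mir92-2, so the levels and folds of these 4 are uncertain. Mir15b and Mir25 had fold values of 0.688 and 0.800 and were not called.

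The leukocyte and platelet list held 6 detected genes. Of these 0 were called higher, where 11.1% of all detected genes were, so a count of 0 among 6 says little about the list. Called lower were 3, where 25.5% of all detected genes were, namely the myeloid Mir223 (5.25-fold), Mir146, which gives miR-146a (1.66-fold), and the pan-leukocyte Mir142 (1.55-fold). With TMM or DESeq2 factors Mir223 alone was called lower, and with totals without Mir451a Mir146 and Mir223 were. The list's summed share was 0.611% in replicate 2 and 0.796% in replicate 1. Mir146 shares 21 bases with Mir146b, so its level is uncertain. For Mir155, a microRNA of activated lymphocytes and macrophages, levels of 2027 CPM in replicate 2 and 2088 in replicate 1 were found. Mir221 and Mir222, which repress Kit and are known to fall as human red cell precursors mature, had 2812 and 80.9 CPM in replicate 2, against 3206 and 147 CPM in replicate 1, and Mir222 was called lower. The endothelial Mir126a had 85269 CPM in replicate 2, below Mir451a, and 73653 CPM in replicate 1, above it. The part of blood content in the difference between the libraries was not tested.

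Because Mir486 is also a muscle microRNA, it was set beside the muscle list. Of the list's 9 genes 6 were detected. Mir1a-1, Mir133a-1 and Mir133a-2 were not, and they share 28 to 31 bases with their copies, so their levels are uncertain. Mir499, hosted by the myosin gene Myh7b, lay above Mir486 in both libraries, with 2641 CPM in replicate 2 and 4354 in replicate 1. Mir206, known from skeletal muscle, lay below it, with 161 CPM in replicate 2 and 268 in replicate 1. Of the 6 detected muscle genes, 1 was called higher in replicate 2 (Mir208a) and 4 lower (Mir1a-2, Mir206, Mir208b and Mir499), or 1 higher and 2 lower with TMM or DESeq2 factors, when Mir206 and Mir499 were no longer called. Over all 306 genes, library totals called 11.1% higher and 25.5% lower, TMM factors 52 and 46 genes, and DESeq2 factors 48 and 49. Mir1a-2 shares 28 bases with Mir1a-1, and its level is uncertain. Mir486 shares 22 bases with Mir3107, so its level, its place beside these genes and its ratios are uncertain too. In the reads counted, Mir486 followed neither Mir208a, which was 3.80-fold higher, nor the genes that were lower. Nor did it follow Mir451a: there were 45.2 counts of Mir451a per count of Mir486 in replicate 2 (44.0 to 46.5) and 4.57 in replicate 1 (4.42 to 4.73).

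**Figure D3:**
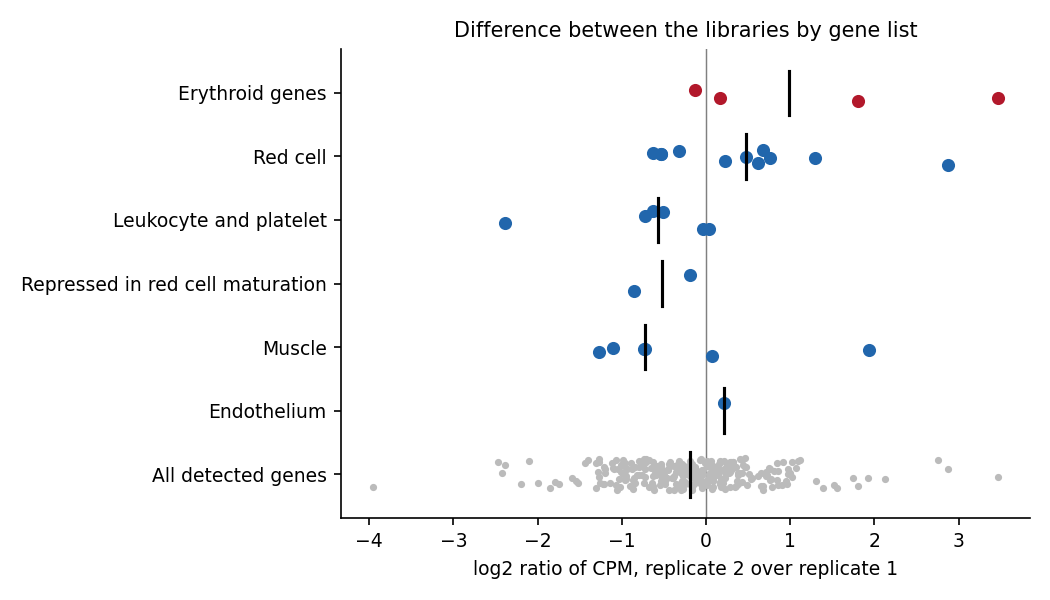
Log2 ratio of CPM, replicate 2 over replicate 1, for the detected genes of each list, with 1 point per gene and a black bar at the list's median. Mir451a and Mir144 are the 2 red points on the right, at 3.47 and 1.81, and the leukocyte and platelet genes lie between -2.39 and 0.03.

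Strand decided how these genes could be counted. At the Mir451a locus all reads lay on the plus strand: Mir451b had 0 reads against 240538 of Mir451a in replicate 2 and 0 against 18950 in replicate 1, which allows at most 0.00125% and 0.0158% of the locus's reads on the minus strand. Mir144, which overlaps no other microRNA gene, had 0 opposite-strand reads in both libraries. At the Mir486 locus, by contrast, reads lay on both strands. Mir3107 held 3.28% of the pair's reads in replicate 2, with an exact interval of 2.82 to 3.78%, against 3.98% in replicate 1, with an interval of 3.42 to 4.61%. The ratio of Mir486 to Mir3107 was 29.5 in replicate 2 (25.5 to 34.5) and 24.1 in replicate 1 (20.7 to 28.2), and these intervals overlap. Mir486 and Mir3107 share a stretch of 22 bases, so these shares and this ratio are uncertain beyond counting error.

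The annotation holds 32 such pairs of overlapping microRNA genes on opposite strands, 18 of them with at least 100 counts. Mir486 with Mir3107 was 1 of 2 pairs with at least 10 counts on the lesser strand in both libraries. The other was Mir24-1 with Mir3074-1, with a lesser-strand share of 23.0% in replicate 2 and 6.53% in replicate 1. Mir24-1 itself had only 411 and 229 counts, and what it shares with Mir24-2 is not given here. Mir1a-2 with Mir1b had lesser-strand shares of 5.63% and 6.62%, also above those of Mir3107, but from only 4 and 10 counts. Mir1a-2 had 67 and 141 counts and shares 28 bases with Mir1a-1. Reads mapped to several places are missing from these shares, so ranking them against those of Mir3107 is uncertain. In 11 of the 18 pairs, that of Mir451a included, the lesser strand had 0 counts in both libraries.

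**Figure D4:**
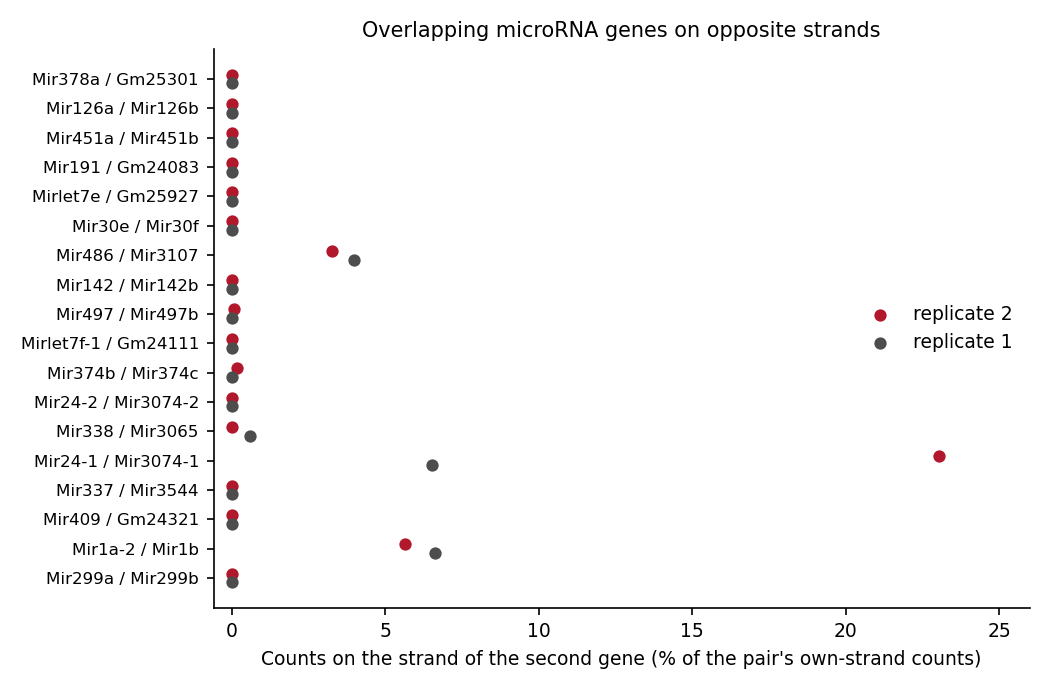
Share of each pair's own-strand counts that lay on the strand of the second gene named (percent), in replicate 2 (red) and replicate 1 (grey), for the 18 overlapping pairs with at least 100 counts, ordered by counts. Mir451b is at 0% and Mir3107 at 3.28% in replicate 2 and 3.98% in replicate 1.

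The hairpins differ in what their strands share. Mir486 and Mir3107 hold an identical stretch of 22 bases, about the length of a mature microRNA, so a read lying within it has a placement on each strand of this locus. The tables list reads mapped to several places apart from the genes. Whether reads of this stretch are among them was not tested, so the levels of Mir486 and Mir3107 and their ratio are uncertain. Of the 18 pairs 3 shared at least 20 bases, and the other 2, Mir374b with Mir374c and Mir299a with Mir299b, had at most 1 count on the lesser strand in a library. Mir451a and Mir451b share at most 16 bases, fewer than the 22 of miR-451a. With any other of the annotated hairpins, Mir451a shared at most 11 bases and Mir144 at most 13. Hairpins were compared in their annotated orientation only, so matches to a reverse complement were not sought. The whole genome was not searched.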

How the data were processed

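The 2 small RNA libraries from heart were sequenced and, per the labels, placed on mm10. The text deposited with the counts names GENCODE M21. The aligner, counter and trimming are, like any versions, not given in the sources used here. Deposited by the authors were raw counts per microRNA gene, with no header. The 3 count columns were identified from their values as reads on either strand, the gene's own strand and the opposite strand. The 4 lines that name no gene held 65.3% of replicate 2 and 70.0% of replicate 1 in the own-strand column and were left out of totals and tests. Own-strand counts were scaled to CPM.

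The genes and the 5 comparison lists (32 entries, 31 matched, 1 through an older symbol) were chosen with earlier results of these data known. Named genes are the 5 genes, Mir23a, the 3 detected genes nearest in log2 ratio to each, their neighbours in mean CPM, and detected list genes. PCR copies cannot be told from separate molecules, since no molecular identifiers are given. Shared stretches are exact matches between annotated hairpins, each in its annotated orientation. Simulated counts with known folds, drawn with counting error alone, were used to check the binomial test. How the test behaves under further spread between libraries was not checked. Alternatives were other strand columns, denominators, count filters and scalings, and each library alone. Python 3.11.15 with scipy 1.17.1, edgeR 4.0.16 and DESeq2 1.42.0 (size factors) were used.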

Additional observations from a re-analysis of the deposited data

Results flagged for a closer look

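Multimapping reads, which the tables list apart from the genes, numbered 3410568 in replicate 2 and 3992614 in replicate 1. They are listed here because they are data outside the counted genes, and no test was made on them. Whether they hold reads from the 22 bases shared by Mir486 and Mir3107 was not tested.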

How the results depend on the processing

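Under all alternatives that gave a value, Mir451a and Mir144 kept their direction and their call: the log2 ratio ran from 3.47 to 3.69 for Mir451a and from 1.81 to 2.02 for Mir144. Mir486 stayed under 1.5-fold, at 0.17 to 0.39. The log2 ratio of Mir3107 reversed to 0.09 with TMM and 0.06 with DESeq2 factors, which move the median gene. Genes called numbered 81 to 114. In the either-strand column Mir451a, Mir486 and Mir3107 are at 0 by construction, since reads over genes of both strands go to neither; the summed share was then 0.609%, all from Mir144, and no ratio between overlapping genes could be formed. With all reads of a library as the denominator the values were 16217 CPM for Mir451a, 1483 for Mir144, 589 for Mir486 and 21.9 for Mir3107, and a summed share of 1.83%, or 2.36% with multimapping reads alone added to the gene counts. Leaving out a replicate gave a summed share of 1.16% to 9.57% and levels of 7816 to 86827 CPM for Mir451a, 1963 to 6858 for Mir144, 1710 to 1919 for Mir486 and 65.0 to 70.9 for Mir3107. The ratio of Mir451a then ran from 3.98 to 12.7 to Mir144 and from 0.264 to 2.03 to Mir23a, and that of Mir486 to Mir3107 from 24.1 to 29.5. The mean levels of Mir451a and Mir144 thus rest on which library is used. No paired analysis was possible because the labels give a single group.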

Other observations

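Replicate 2 had 345860 more reads on microRNA genes than replicate 1, and Mir451a alone had 221588 more, which equals 64.1% of that gap. Counted without regard to strand, reads over overlapping genes are listed as ambiguous, 806523 in replicate 2 and 518508 in replicate 1. Mir451a reads equal 29.8% of that number in replicate 2 and 3.65% in replicate 1, and in counts taken without strand none of them is assigned to a gene.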
